A study of Homo sapiens with 6 samples.

Results

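The AP-1 transcription factors examined here were the 10 genes FOS, FOSB, FOSL1, FOSL2, JUN, JUNB, JUND, ATF3, BATF2 and BATF3, taken by symbol from the 58174 genes of the deposited values. All 10 were measured in SiHa, an established human cell line from a cervical squamous cell carcinoma. Every sample was transfected with a plasmid, either GV230 carrying BRCA1 (OV-BRCA1 group, 3 samples) or GV230 without an insert (NC group, 3 samples), and RNA was taken 48 h later. The plasmids were introduced with a lipid reagent, the share of cells that took them up is not given in the sources used here, and the samples of a group were biological replicates of 1 cell line. No untransfected cells are among these samples. The question for AP-1 is which of its members differ between cells given the BRCA1 plasmid and cells given the vector alone.

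AP-1 is a group of dimers of bZIP proteins, in which a basic region contacts DNA and a leucine zipper joins the partners. JUN proteins pair with themselves or with FOS proteins, while FOS proteins need a JUN partner, and the dimers bind the sequence TGANTCA. FOS, FOSB, JUN and JUNB are immediate early genes that are copied within minutes of a growth or stress signal and whose mRNA is short-lived. FOSL1 (FRA-1) and FOSL2 (FRA-2) respond later and are typical of epithelial tumours with invasive growth. ATF3 and the BATF proteins are bZIP partners of JUN proteins, ATF3 being induced by stress and BATF2 by interferon.

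By the hg38 coordinates of GENCODE 29, the FOS family genes are FOS at chr14:75278774-75282230 (plus strand), FOSB at chr19:45467995-45475179 (plus strand), FOSL1 at chr11:65892049-65900573 (minus strand) and FOSL2 at chr2:28392448-28417312 (plus strand). The JUN family genes are JUN at chr1:58780788-58784327 (minus strand), JUNB at chr19:12791496-12793315 (plus strand) and JUND at chr19:18279760-18281622 (minus strand). The others are ATF3 at chr1:212565334-212620777 (plus strand), BATF2 at chr11:64987943-64997045 (minus strand) and BATF3 at chr1:212686418-212699985 (minus strand). All are protein-coding genes, and the values cover all their annotated transcripts.

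Promoters of the members are shown because FOS and FOSB, which fell, share a short motif near the start of the gene with FOSL2, which did not pass the test, and with JUND. The windows come from RefSeq on GRCh38.p14 and hold up to 250 bases before the RefSeq start, without bases inside the most abundant transcript and, for members, inside any coding transcript that starts in the window. Motifs were searched on both strands as TGANTCA, as TGACGTCA (the cAMP response element) and as TGACGT, which is part of the latter, and capitals mark the matches. The FOS window is chr14:75278578-75278773 (plus strand), that of FOSB chr19:45467746-45467994 (plus), that of FOSL2 chr2:28392608-28392801 (plus) and that of JUND chr19:18281623-18281872 (minus).
FOS: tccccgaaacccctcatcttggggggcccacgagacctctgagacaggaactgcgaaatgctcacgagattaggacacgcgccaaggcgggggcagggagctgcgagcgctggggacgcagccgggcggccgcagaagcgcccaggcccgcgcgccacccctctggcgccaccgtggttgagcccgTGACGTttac
FOSB: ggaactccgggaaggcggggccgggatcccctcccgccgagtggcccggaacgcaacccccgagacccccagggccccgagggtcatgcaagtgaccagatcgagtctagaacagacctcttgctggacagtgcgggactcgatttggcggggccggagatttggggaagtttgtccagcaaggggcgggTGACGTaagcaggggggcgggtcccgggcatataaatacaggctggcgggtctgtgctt
FOSL2: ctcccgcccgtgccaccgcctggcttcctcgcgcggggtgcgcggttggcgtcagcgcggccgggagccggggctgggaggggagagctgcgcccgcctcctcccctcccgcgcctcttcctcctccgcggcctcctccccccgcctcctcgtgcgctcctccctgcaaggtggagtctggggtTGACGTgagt
JUND: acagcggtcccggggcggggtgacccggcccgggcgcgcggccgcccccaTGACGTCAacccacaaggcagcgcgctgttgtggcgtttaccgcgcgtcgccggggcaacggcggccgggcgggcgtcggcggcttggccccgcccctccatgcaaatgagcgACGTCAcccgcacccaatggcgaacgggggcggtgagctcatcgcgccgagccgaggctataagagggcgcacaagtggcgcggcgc
The TGACGT match lay 64 to 59 bases before the RefSeq start in FOS, 60 to 55 bases in FOSB and 66 to 61 bases in FOSL2. JUND held the full TGACGTCA 200 to 193 bases before its start and a further TGACGT on the other strand at 87 to 82 bases. Over all 35116 RefSeq promoters, TGACGT was present in 7.1%, TGACGTCA in 1.65% and TGANTCA in 6.57% of the windows of 250 bases. The windows of JUN and JUNB held none of the 3 motifs, and that of JUN lies wholly inside the annotated JUN transcript. The RefSeq windows of ATF3 and BATF2 lie 6348 bases or more from the start of their most abundant transcript and are not shown. FOSL1 and BATF3 were not matched in the promoter table. The FOSL2 window starts after the first annotated base of the gene, which belongs to another FOSL2 transcript. A match is a description of letters only.

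The values are FPKM, fragments per kilobase of transcript scaled to the mapped fragments of the library, which the authors gave per transcript and which were summed here per gene. For 16321 genes the log2(FPKM + 1) of OV-BRCA1 and NC samples entered limma's moderated test, and p-values are Benjamini-Hochberg values over all of them. A gene is said to rise or fall where its adjusted p was below 0.05, and the criterion adds an absolute log2 fold change above 1. Fold changes on this scale are understated for genes with low FPKM. With 3 samples against 3, an exact permutation test of a single gene cannot give a two-sided p below 0.1. The files hold no counts, and the depth estimated from the value of 1 fragment was 14.3 to 16.7 M (mega) fragments in the OV-BRCA1 samples and 16.1 to 19.9 M in the NC samples. Of the low values, 32.9% to 40.1% lay within 0.1 of a whole fragment, so whole reads were not recovered. BRCA1 stood at 18.9 ± 3.56 FPKM (SD, n = 3) with the empty vector and at 37.1 ± 3.18 FPKM with the BRCA1 plasmid, a rise of 0.95 on the log2 scale (adjusted p = 0.00373, limma). Of 8 epithelial markers, KRT7, KRT8, KRT17, KRT18 and EPCAM stood above 1 FPKM in every sample, whereas KRT5, a keratin of basal squamous cells, was at 0.202 FPKM or less and CDH1 and KRT19 were at most at 0.896 and 0.917 FPKM. The 8 markers summed to 3207 to 3358 FPKM in the OV-BRCA1 samples and 3585 to 3709 in the NC samples. The single markers did not move together, since KRT17 was lower in every OV-BRCA1 sample (953 to 1131 against 1425 to 1442 FPKM) and KRT8, KRT18 and EPCAM were higher in every one. The 6 fibroblast markers summed to at most 0.366 FPKM. Of the blood cell markers, PTPRC and MS4A1 were listed at 0 in all samples, and CD14 stood at 6.65 to 9.04 FPKM in the OV-BRCA1 samples and 17.8 to 20.4 FPKM in the NC samples. The part of these differences in the results below was not tested.

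All 10 members passed the filter of at least 0.5 FPKM in at least 3 samples. Of these, 2 rose (FOSL1 and BATF2), 5 fell (FOS, FOSB, JUNB, JUND and ATF3) and 3 did not pass the test (FOSL2, JUN and BATF3). Among all genes tested, 35.3% passed, with 16.4% rising and 18.9% falling. The criterion was met by FOSL1 and BATF2 upward, where 2.89% of all genes met it, and by FOS, FOSB and ATF3 downward, where 1.1% did. That is 5 of 10 members against 3.99% of all genes in either direction. For the 7 members that passed, OV-BRCA1 and NC values did not overlap, upward in 2 and downward in 5. Such separation was seen in 50.8% of all genes tested, 23.4% upward and 27.4% downward. The median log2 fold change of the 10 members was -0.16, beside -0.04 over all genes. The members were proposed with results of these data known, so these counts are a description. In bulk RNA, fewer cells that express a gene and less of its RNA per cell cannot be told apart.

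**Figure D1:**
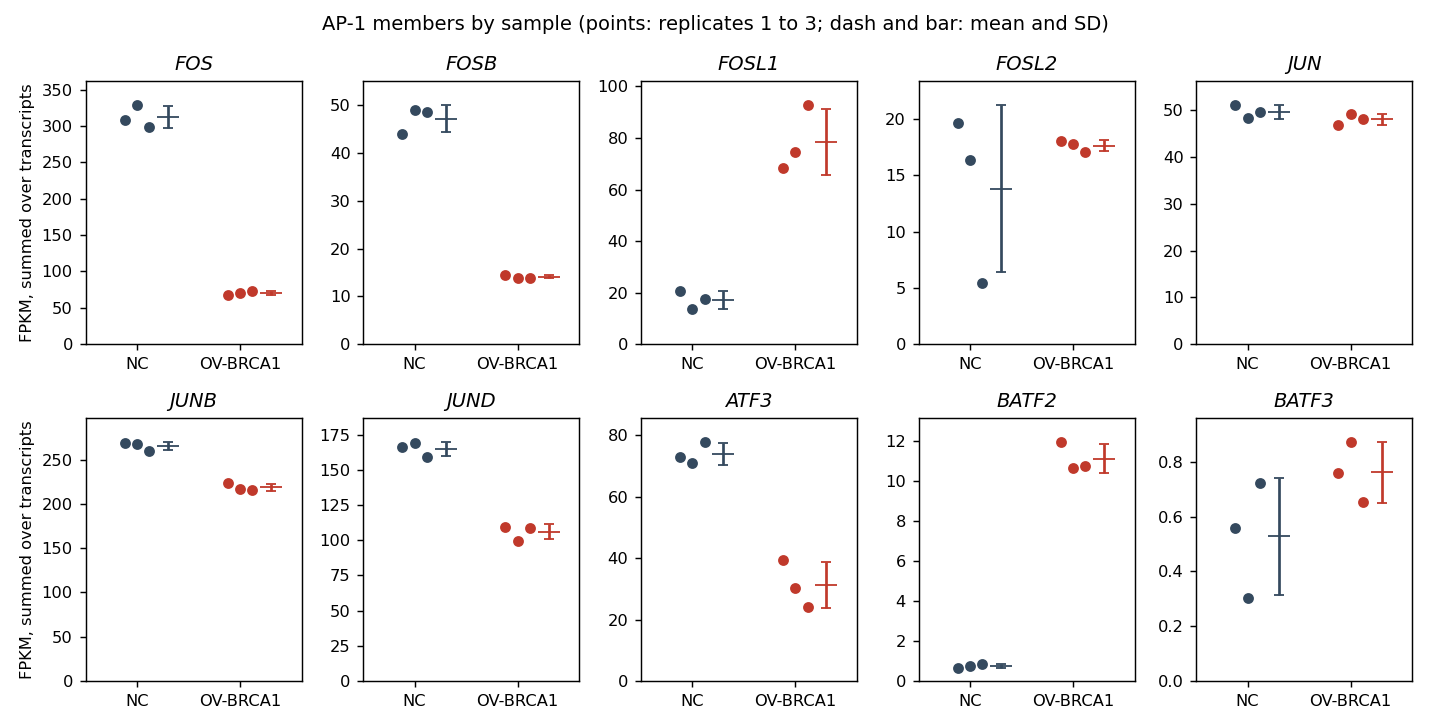
FPKM (vertical axes, starting at 0) of the 10 AP-1 members in the 3 NC and 3 OV-BRCA1 samples, with each replicate as a point and the mean and SD beside it. FOS, FOSB, JUNB, JUND and ATF3 were lower in every OV-BRCA1 sample, FOSL1 and BATF2 were higher in every one, and the groups overlapped for FOSL2, JUN and BATF3.

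FOS, the founding member of its family and the most abundant AP-1 mRNA of the NC group, had the steepest fall of the 10 members on the log2(FPKM + 1) scale and in FPKM. It stood at 309, 329 and 299 FPKM in NC samples 1, 2 and 3, compared with 68.2, 70.6 and 72.9 FPKM in OV-BRCA1 samples 1, 2 and 3. The samples lay close together within each group and far apart between the groups. The NC mean was 4.42 times the OV-BRCA1 mean, and the log2 fold change was -2.13 (SE 0.05, adjusted p = 3.88e-06, limma). Only 6 of the 3090 genes that fell had a larger change on this scale. By their means, 9 of the 10 annotated FOS transcripts were lower in OV-BRCA1 samples, the exception being the short FOS-210 (0.783 against 0.508 FPKM), and the full-length FOS-201 went from a mean of 104 FPKM to 20.1 FPKM.

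FOSB, a close relative of FOS with the same early response, fell too. The NC samples were at 43.9, 49.1 and 48.6 FPKM and the OV-BRCA1 samples at 14.4, 13.9 and 13.9 FPKM. The lowest NC sample was thus well above the highest OV-BRCA1 sample. On the log2 scale the change was -1.68 (SE 0.06, adjusted p = 1.46e-05, limma), and 15 of the genes that fell changed more. The division of FOSB over its 13 annotated transcripts was not stable between replicates. In the NC group the main transcript was FOSB-204 in sample 1 (28.9 FPKM), FOSB-202 in sample 2 (28.7 FPKM) and FOSB-210 in sample 3 (29.9 FPKM), while the sum per gene varied little. A test of the most abundant transcript alone did not pass (log2 fold change -1.45, adjusted p = 0.424, limma), and no single FOSB isoform is described as changed. FOSB lies inside the span of ERCC1 on the opposite strand, whose values of 45.6 to 47.9 FPKM with BRCA1 and 46.6 to 60.9 FPKM with the vector overlapped, and the use of strand in the quantification is not given in the sources used here.

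FOSL1, which encodes FRA-1, moved in the opposite direction. It stood at 20.5, 13.5 and 17.4 FPKM in NC samples 1, 2 and 3, compared with 68.2, 74.4 and 92.8 FPKM in OV-BRCA1 samples 1, 2 and 3. OV-BRCA1 replicate 3 was the highest of its group, and the lowest OV-BRCA1 sample was still above every NC sample. The OV-BRCA1 mean was 4.58 times the NC mean and the log2 fold change 2.14 (SE 0.17, adjusted p = 3.37e-04, limma). Among the 2674 genes that rose, 106 changed more. Most of the rise was assigned to FOSL1-203, from 10.1, 3.98 and 9.09 FPKM to 46.4, 51.2 and 72.4 FPKM, whereas FOSL1-201 went from 5.54, 7.64 and 4.83 FPKM to 14.7, 12.7 and 13.6 FPKM.

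FOSL2, which encodes FRA-2, did not pass the test, and 1 library set the sign and size of its change. Its FPKM was 18.0, 17.8 and 17.1 in the OV-BRCA1 samples and 19.6, 16.4 and 5.46 in the NC samples. NC replicate 3 stood far below the other 5 samples, which ranged from 16.4 to 19.6 FPKM. The log2 fold change of 0.49 had a 95% confidence interval from -0.52 to 1.504 (adjusted p = 0.403, limma), and without NC replicate 3 it was -0.025 and did not pass either (adjusted p = 0.867, limma). The low value came from FOSL2-201, the main transcript, at 4.63 FPKM in NC replicate 3 against 19.0 and 15.5 FPKM in the other NC samples. The genes FLJ31356 and AC104695.3 overlap FOSL2 and stood at 0.309 to 2.65 FPKM.

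With FOS and FOSB falling and FOSL1 rising, the make-up of the FOS family mRNA differed between the groups. Since FPKM is per length, the members can be summed. The 4 genes together had 393, 408 and 371 FPKM in NC samples 1, 2 and 3 and 169, 177 and 197 FPKM in OV-BRCA1 samples 1, 2 and 3. FOS made up 80.0% ± 1.19 (SD, n = 3) of this sum with the vector and 39.1% ± 1.82 with BRCA1. FOSL1 made up 4.41% ± 0.98 with the vector and 43.2% ± 3.54 with BRCA1. FOSB went from 12.1% ± 0.977 to 7.82% ± 0.742. The level of FOS was 15.1, 24.3 and 17.2 times that of FOSL1 in the NC samples and 1.00, 0.949 and 0.785 times in the OV-BRCA1 samples. FOS and FOSL1 mRNA were thus at similar levels after the BRCA1 plasmid, while FOS mRNA dominated after the empty vector. These shares rest on the same values as the single genes and were not tested on their own.

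**Figure D2:**
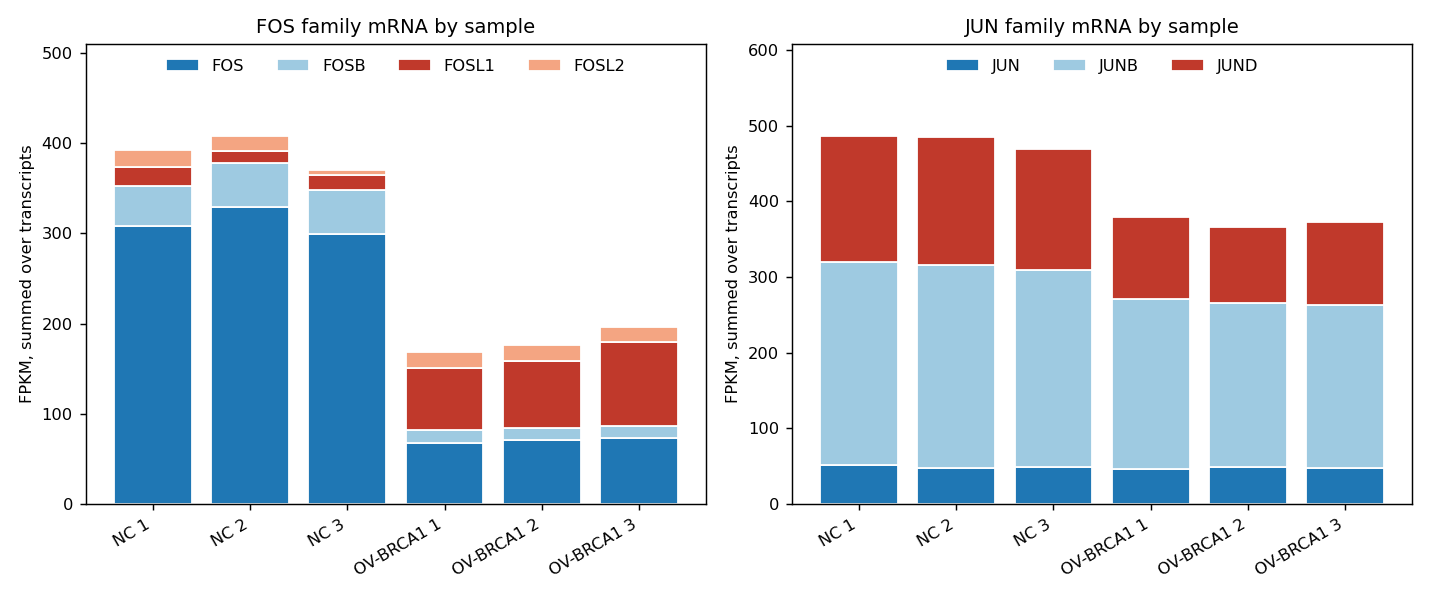
Summed FPKM (vertical axes) of the FOS family (left) and the JUN family (right) in each of the 6 samples, with the members stacked. FOS fills about 80.0% of the FOS family bar in the NC samples and 39.1% in the OV-BRCA1 samples, where FOSL1 fills 43.2%, while in the JUN family bars JUNB takes the largest share in every sample.

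The JUN family, the obligate partners of the FOS proteins, moved less. JUN itself, the first AP-1 protein to be described, was at 46.8, 49.2 and 48.1 FPKM in the OV-BRCA1 samples and at 51.1, 48.3 and 49.5 FPKM in the NC samples. The groups overlapped. On the log2 scale the change was -0.04 with a 95% confidence interval from -0.16 to 0.07 (adjusted p = 0.509, limma), and the changes of JUNB and JUND lie outside this interval. JUN has 1 annotated transcript in the files.

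JUNB, a partner of FOS that can also oppose JUN, was the most abundant JUN gene. It was at 269, 268 and 260.03 FPKM in the NC samples and at 224, 217 and 215 FPKM in the OV-BRCA1 samples. The groups did not overlap, and the fall was small, with a log2 fold change of -0.28 (SE 0.04, adjusted p = 0.00267, limma). Of the 3090 genes that fell, 2802 changed more. HOOK2, which spans JUNB on the opposite strand, had 8.35 to 9.13 FPKM with BRCA1 and 10.2 to 15.7 FPKM with the vector, and its part in the JUNB value was not tested.

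JUND, which is usually expressed steadily in resting cells, fell from 166, 169.5 and 159 FPKM to 109, 99.8 and 109 FPKM. Again no sample of one group reached the other. The log2 fold change was -0.63 (SE 0.05, adjusted p = 3.98e-04, limma), which does not reach the criterion. The 3 JUN genes summed to 469 to 486 FPKM in the NC samples and to 366 to 380 FPKM in the OV-BRCA1 samples. JUNB took 55.3% ± 0.158 (SD, n = 3) of the sum with the vector and 58.7% ± 0.740 with BRCA1, and JUND 34.4% ± 0.493 and 28.4% ± 1.01. JUN took 10.3% ± 0.340 and 12.9% ± 0.560. The order of JUNB, JUND and JUN was therefore the same in every sample.

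ATF3, a stress-induced bZIP factor that often acts as a repressor, fell at the level of the gene. It stood at 73.1, 71.0 and 78.0 FPKM in the NC samples and at 39.2, 30.3 and 24.1 FPKM in the OV-BRCA1 samples. On the log2 scale the change was -1.24 (SE 0.16, adjusted p = 0.00226, limma), and the groups did not overlap. The spread within the OV-BRCA1 group was wide, and the change was -1.08 without OV-BRCA1 replicate 3 and -1.42 without OV-BRCA1 replicate 1. In the NC group most of the signal was assigned to ATF3-208, annotated as a transcript with a retained intron. ATF3-208 was at 51.8, 48.3 and 52.1 FPKM in the NC samples and 10.4, 16.1 and 15.7 FPKM in the OV-BRCA1 samples. The 8 transcripts annotated as protein-coding summed to 16.4, 16.8 and 13.1 FPKM in the NC samples and to 27.5, 13.2 and 5.05 FPKM in the OV-BRCA1 samples, so for these the groups overlapped. OV-BRCA1 replicate 1 stood apart through the coding transcript ATF3-202, with 22.5 FPKM against 6.25 and 1.89 FPKM in replicates 2 and 3. ATF3-202 was at 0.474, 0.488 and 0.928 FPKM in the NC samples, so it was higher in every OV-BRCA1 sample. The means of the coding sum were 15.4 FPKM in the NC group and 15.2 FPKM in the OV-BRCA1 group. The 3 transcripts of other types, ATF3-208 among them, went from a mean of 58.6 FPKM to 16.0 FPKM. As the signal was divided, the fall of the sum of 11 transcripts thus lay in those not annotated as coding. The coding transcripts were not tested apart.

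**Figure D3:**
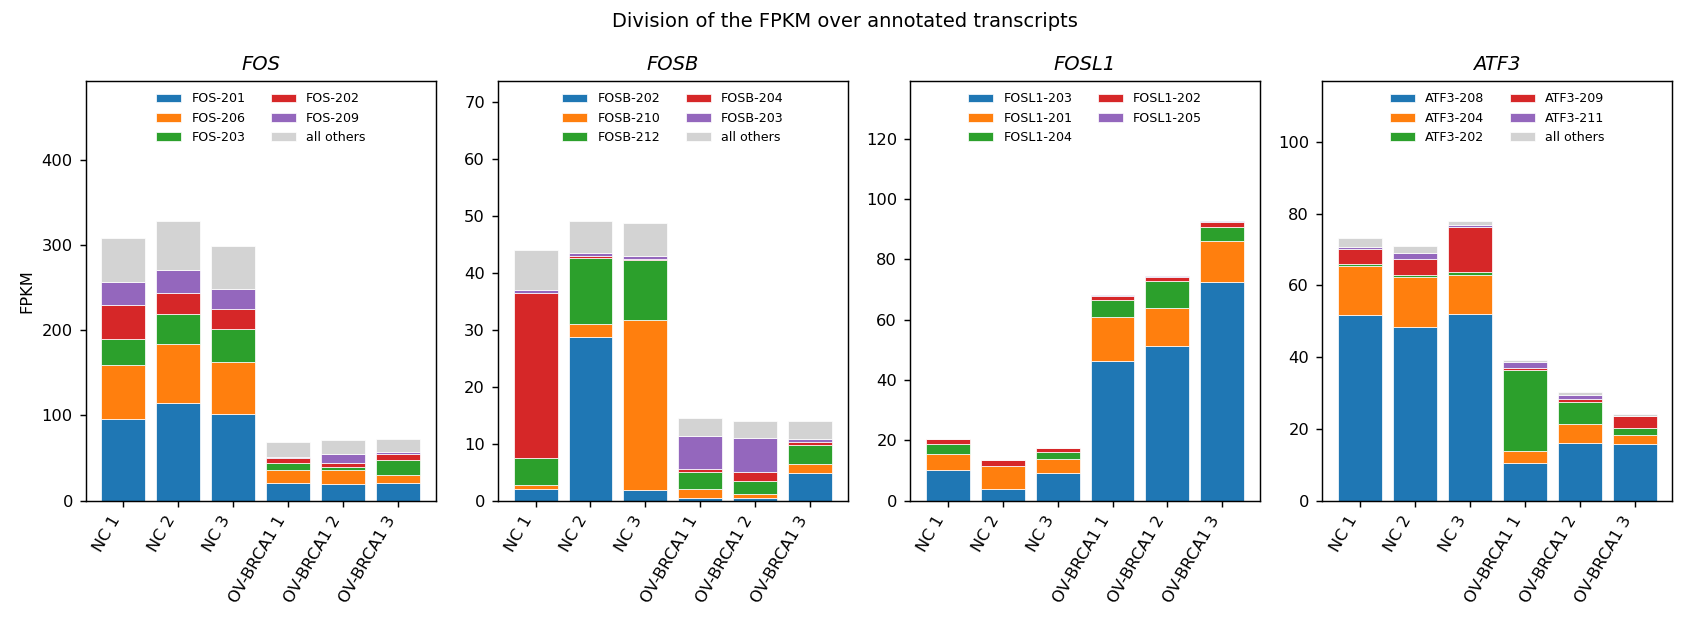
FPKM (vertical axes) of FOS, FOSB, FOSL1 and ATF3 in each sample, divided over the 5 annotated transcripts with the highest mean and, in grey, the others. The main FOSB transcript differs in each of the 3 NC samples while the bar height is similar, and the coding transcript ATF3-202 is highest in OV-BRCA1 replicate 1.

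BATF2, a small bZIP factor known to be induced by interferon, had the largest change of the 10 members on the log2(FPKM + 1) scale. It stood at 0.652, 0.733 and 0.869 FPKM in NC samples 1, 2 and 3 and at 11.95, 10.6 and 10.7 FPKM in the OV-BRCA1 samples. All NC samples were below 1 FPKM and all OV-BRCA1 samples above 10. The OV-BRCA1 mean was 14.8 times the NC mean. The log2 fold change was 2.79 (SE 0.09, adjusted p = 8.89e-06, limma) and 3.72 with a pseudocount of 0.1, and 50 of the genes that rose changed more. An estimated 23.4 to 38.3 fragments per NC sample and 333 to 381 fragments per OV-BRCA1 sample lie behind these values. In the OV-BRCA1 group the signal was almost wholly that of the full-length BATF2-201, at 10.5, 9.88 and 10.2 FPKM.

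BATF3, known from dendritic cells, was near the limit of detection. Its FPKM was 0.760, 0.874 and 0.653 in the OV-BRCA1 samples and 0.558, 0.302 and 0.725 in the NC samples, from an estimated 9.95 to 18.7 fragments per sample. The groups overlapped and no difference was detected, and the part of depth in this was not tested. The log2 fold change of 0.21 had a 95% confidence interval from -0.10 to 0.52 (adjusted p = 0.245, limma).

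**Figure D4:**
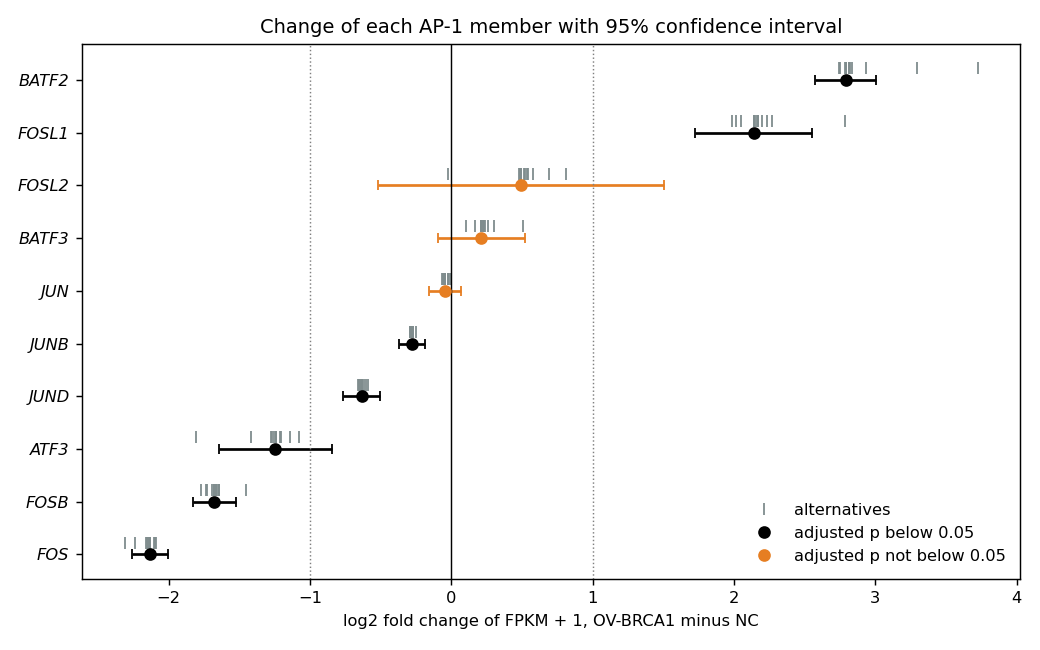
Log2 fold change of FPKM + 1 (horizontal axis, OV-BRCA1 minus NC) of each AP-1 member with its 95% confidence interval, black where the adjusted p was below 0.05 and orange where it was not, and with the values under the alternatives as grey ticks. Dotted lines mark a change of 1 in either direction, and the intervals of FOSL2, JUN and BATF3 include 0.

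Set side by side, the order of the levels changed at the top. In the NC group the means ran from FOS (312 FPKM) over JUNB (266), JUND (165), ATF3 (74.0), JUN (49.6), FOSB (47.2), FOSL1 (17.1) and FOSL2 (13.8) to BATF2 (0.751) and BATF3 (0.528). The samples of JUN and FOSB, of FOSL1 and FOSL2, and of BATF2 and BATF3 overlapped, so the order of these neighbours is not clear from their ranges. Within each NC sample BATF2 was above BATF3, whereas the order of the other pairs varied. In the OV-BRCA1 group the order was JUNB (219 FPKM), JUND (106), FOSL1 (78.5), FOS (70.6), JUN (48.1), ATF3 (31.2), FOSL2 (17.6), FOSB (14.1), BATF2 (11.1) and BATF3 (0.762). There only the samples of FOSL1 and FOS overlapped among neighbours.

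For the members that met the criterion, the genes with the most similar profile were found by the root-mean-square distance between their log2 changes from the NC mean over 6 samples. For FOSL1 these were STC2 (distance 0.16), a gene without a name in the annotation (0.19) and SAMHD1 (0.20). BATF2 was nearest to CCR4 (0.07), GMPR (0.09) and ETV7 (0.10). FOS was nearest to SNORD14C (0.05), ALPP (0.10) and SAMD11 (0.18), and FOSB to MAOB (0.12), PIF1 (0.14) and CCDC137 (0.17). ATF3 was nearest to TRAPPC6A (0.11), AL139352.1 (0.12) and DNM1 (0.14). The 6 samples fall into 2 groups, so likeness here means mostly a change of similar size on the log2(FPKM + 1) scale. SNORD14C went from a mean of 3.35 FPKM in the NC group to 0.019 FPKM in the OV-BRCA1 group. In the same order CCR4 went from 0.2 to 7.31 FPKM and AL139352.1 from 2.47 to 0.351 FPKM. Their ratios in FPKM thus differ from those of FOS, BATF2 and ATF3.

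Other bZIP genes, which pair with AP-1 proteins or bind related sites, moved in both directions. Of 29 genes listed, 26 were tested, and 9 rose, 3 fell and 14 did not pass the test, with a median log2 fold change of 0.19 beside -0.04 over all genes. The share that passed was 46.2%, beside 35.3% of all genes tested. XBP1, a factor of the unfolded protein response, rose from 42.9 ± 3.61 to 96.6 ± 2.57 FPKM (SD, n = 3) and was the only one to meet the criterion in the main test. With the most abundant transcript XBP1 was at 0.73 and DDIT3 at 1.55 on the log2 scale, so that DDIT3 met the criterion in place of XBP1. With a pseudocount of 0.1, 3 genes of the list met it, CREB5 (1.44) and NFE2L3 (1.09) among them, and with a length-weighted sum or without OV-BRCA1 replicate 1, 2 did. Without NC replicate 2, 1 gene met it upward and 1 downward. CREB5 rose by 0.92, DDIT3, which encodes the stress factor CHOP, by 0.84 and NFE2L3 by 0.82 on the log2 scale. JDP2, a repressor of AP-1 that binds JUN proteins, fell from 12.05 ± 0.0202 to 6.94 ± 0.659 FPKM (log2 fold change -0.72, adjusted p = 0.00114, limma). MAFK had a log2 fold change of -0.40 and CEBPD one of -0.23, the latter no longer passing in 5 of the 6 fits without 1 sample. With the most abundant transcript alone 5 genes of the list rose and 3 fell, and CREB5 (0.67), NFE2L3 (0.19) and JDP2 (-0.94) kept their sign and did not pass. BATF, the relative of BATF2 of lymphoid cells, was listed at 0 in all samples.

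Genes upstream of AP-1, mainly the MAP kinase cascade and the serum response factor system that switch on FOS and JUN, showed small changes. The list also holds FBXW7, COP1 and ITCH, which belong to neither and did not pass the test. Of 43 genes listed, 40 were tested, and 6 rose, 8 fell and 26 did not pass, a share of 35.0% that is close to the 35.3% of all genes. None met the criterion in the main test, and the median log2 fold change was -0.01. With a pseudocount of 0.1, with the most abundant transcript or without NC replicate 2, 1 gene met it upward. MAPK13 was at 1.01 with the pseudocount, 1.23 with the most abundant transcript and 0.47 with a length-weighted sum. MAPK13, a p38 kinase, rose by 0.80, MAP2K3, a kinase that activates p38, by 0.70, MAP3K14 (NIK, of the noncanonical NF-kB pathway) by 0.62 and MAP2K1 (MEK1) by 0.57 on the log2 scale. MAP3K3 (-0.60), MAP3K8 (-0.50), HRAS (-0.48) and MAP3K4 (-0.45) had the largest falls of the list. These counts moved with the setting, to 8 and 7 with median-of-ratios scaling, 9 and 11 with a length-weighted sum of transcripts, 6 and 5 without the filter, 3 and 3 with the most abundant transcript, 4 and 5 without OV-BRCA1 replicate 3, and 5 and 5 without NC replicate 2. With the most abundant transcript MAP2K3 (2.02), MAP3K3 (-0.38), HRAS (-0.64) and MAP3K4 (-1.21) kept their sign and did not pass, the fold being larger than in the sum for all but MAP3K3. That of MAP3K14 had a log2 fold change of -0.20 and so pointed the other way.

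The other immediate early genes did not follow FOS and FOSB as a group. Of 34 genes listed, 33 were tested, and 10 rose, 10 fell and 13 did not pass, with a median log2 fold change of -0.05 beside -0.04 over all genes. The share that passed was 60.6%, beside 35.3% of all genes tested. EGR1, a zinc finger factor induced by the same signals as FOS, fell from 186 ± 2.70 to 120 ± 2.07 FPKM (SD, n = 3), a log2 fold change of -0.63 (adjusted p = 1.19e-04, limma). KLF4 (-0.78), KLF2 (-0.66) and SIK1 (-0.62) also fell, KLF4 not passing with the most abundant transcript alone at a similar change of -0.77. GADD45A, a DNA damage and stress gene, rose from 15.1 ± 1.47 to 35.4 ± 1.82 FPKM, and IER3, an early gene under NF-kB control, from 65.1 ± 1.64 to 135 ± 3.45 FPKM. ARC rose by 1.116 and DUSP2, a phosphatase of MAP kinases, by 1.06 on the log2 scale. Of the 4 genes of the list that met the criterion upward, 2 still did without NC replicate 1. In the main test 0 met it downward, and with a pseudocount of 0.1, 1 did.

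Known AP-1 target genes were mostly higher in the OV-BRCA1 group. Of 50 genes listed, 37 were tested, and 28 rose, 2 fell and 7 did not pass, with a median log2 fold change of 0.84 beside -0.04 over all genes. The share that passed was 81.1%, beside 35.3% of all genes tested, and 16.4% of all genes rose. Of the 28, 13 met the criterion, which 2.89% of all genes met upward. For 2 of the tested genes all NC samples were below 0.5 FPKM, so that they entered through the OV-BRCA1 group alone, and without the filter 47 genes were tested, of which 28 rose and 1 fell with a median of 0.65. The list was written with earlier results known, and many of its genes are also targets of NF-kB, so the counts describe the list without assigning its genes to AP-1. CXCL8, which encodes the neutrophil chemokine IL-8, rose from 5.84 ± 0.450 to 126 ± 5.02 FPKM (SD, n = 3, log2 fold change 4.21, adjusted p = 1.24e-06, limma). The collagenase gene MMP1 rose from 0.498 ± 0.095 to 12.4 ± 0.808 FPKM and the stromelysin gene MMP3 from 0.903 ± 0.101 to 14.4 ± 1.13 FPKM. PTGS2, which encodes the cyclooxygenase of inflammation, rose from 6.57 ± 0.641 to 55.3 ± 3.11 FPKM. HMOX1, a gene of heme breakdown, fell from 38.2 ± 0.395 to 28.7 ± 0.255 FPKM, and TIMP1, an inhibitor of metalloproteinases, had a change of -0.18 on the log2 scale (adjusted p = 0.0124, limma), which did not pass without the filter (also -0.18) or with the most abundant transcript (-0.36).

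**Figure D5:**
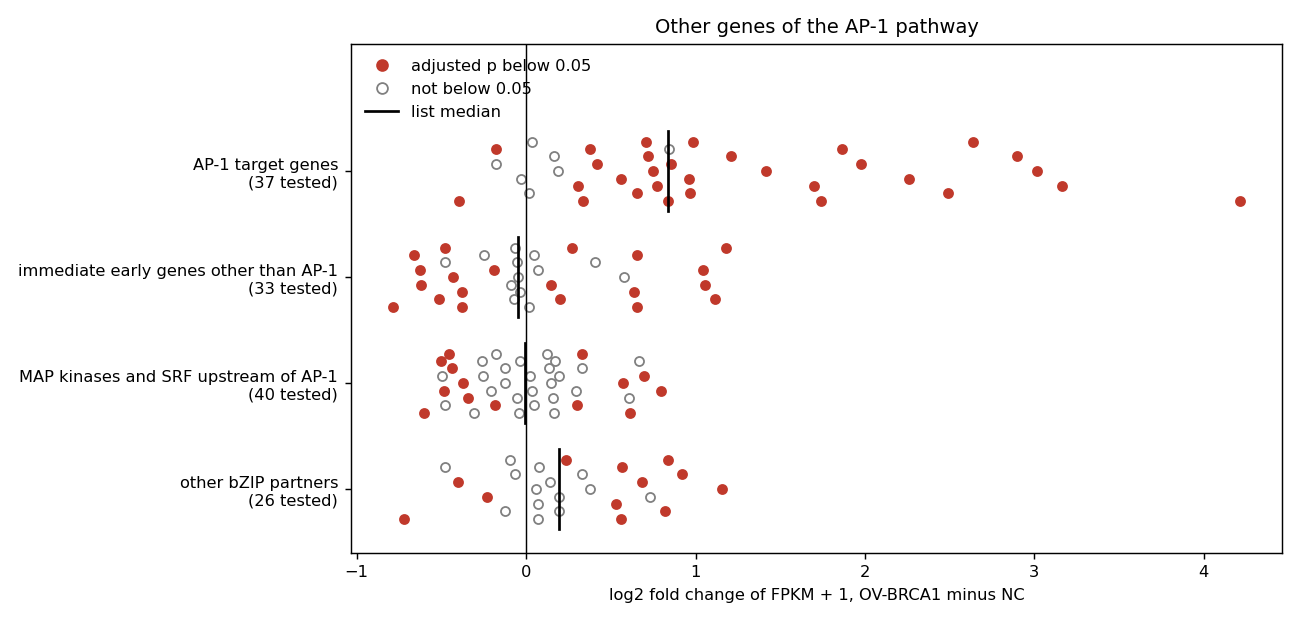
Log2 fold change of FPKM + 1 (horizontal axis, OV-BRCA1 minus NC) of the tested genes in 4 lists around AP-1, filled where the adjusted p was below 0.05, with the list median as a black line. The median is 0.84 for the AP-1 target genes and between -0.05 and 0.19 for the other lists.

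The promoter of CXCL8 is shown as a target with the AP-1 motif itself, in capitals, in the window chr4:73740319-73740505 (plus strand, RefSeq on GRCh38.p14).
CXCL8: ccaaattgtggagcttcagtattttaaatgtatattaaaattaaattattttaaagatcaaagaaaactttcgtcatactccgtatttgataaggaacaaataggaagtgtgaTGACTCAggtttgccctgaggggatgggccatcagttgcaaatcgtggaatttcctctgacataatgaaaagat
The match TGACTCA lay 137 to 131 bases before the RefSeq start. Of the other named targets, PTGS2, which rose, had a window without any of the motifs searched. The window of TIMP1, which fell, held TGACGT but not TGANTCA. Of the tested target genes, 28 had a RefSeq promoter, and 9 of these genes (32.1%) held TGANTCA in any of their windows, beside 6.57% of all single promoters. TGANTCA sites are one ground on which genes are known as AP-1 targets. Of the tested immediate early genes, 23 had a promoter, TGANTCA was found in 0 of these genes and TGACGT in 9 (39.1%, beside 7.1% of all single promoters). The lists were counted per gene and the background per promoter. A gene with several promoters has more windows that can match, so these shares are not in the same unit.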

How the data were processed

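mRNA libraries of 3 OV-BRCA1 and 3 NC samples were sequenced. The authors deposited FPKM values for 199167 transcripts, computed from quality-filtered reads, and the submitters' processing notes name FastQC, HISAT2 and hg38. The quantification tool, its annotation and its use of strand are not given in the sources used here. The authors tested counts with DESeq, which cannot be applied to FPKM. The 6 sample files and the series table held the same values.

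FPKM were summed per gene, named by GENCODE 29, which held 198868 of the transcripts, 98.7% of them at the same position. Groups came from the labels. Genes with at least 0.5 FPKM in at least 3 samples were tested on log2(FPKM + 1) with limma 3.58.1 in R 4.3.3, with trend and without robust estimation, and with Benjamini-Hochberg adjustment. The procedure was tested on simulated data. Depth was estimated in 14216 single-transcript genes with lengths from 600 to 5000 bases, by the depth, searched from 10 to 24 M (mega) fragments, that best placed low values on whole numbers. Confidence intervals cover the spread between samples. p-values measure the spread between cultures of 1 line.

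The members and the gene lists were chosen with earlier results of these data known. Named were all 10 members, from each of 4 further lists up to 4 genes with adjusted p below 0.05 and the largest change in each direction, and the 3 genes nearest to each member that met the criterion. FLJ31356, AC104695.3, ERCC1, HOOK2 and BATF were named after their values were seen. Alternatives were a pseudocount of 0.1, no filter, a replicate block, each sample left out, median-of-ratios scaling, the most abundant transcript and, added after the values were seen, a length-weighted sum. Figures used matplotlib 3.10.9.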

Additional observations from a re-analysis of the deposited data

How the results depend on the processing

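Of the 10 AP-1 members, 7 passed the test and 5 met the criterion in each alternative apart from the most abundant transcript, where 6 passed and 4 met it, FOSB being lost. For ATF3 the transcript tested there was ATF3-208, annotated with a retained intron (log2 fold change -1.805). FOSL2 was the only member to change direction, with a log2 fold change of -0.025 without NC replicate 3 and up to 0.81 when another sample was left out. Among the other named genes, MAP3K14 turned to -0.20 with the most abundant transcript. Over all genes, the number that met the criterion was 651 and rose to 1280 with a pseudocount of 0.1, which expands low values, and the number with an adjusted p below 0.05 was 5764 and dropped to 3291 with the most abundant transcript, where the cause was not tested. With a length-weighted sum of transcripts, chosen after seeing the data, the log2 fold change was -2.24 for FOS, 2.05 for FOSL1, -1.14 for ATF3 and 3.29 for BATF2. Median-of-ratios scaling moved the median of all genes from -0.04 to -0.01.

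No pairing by replicate number was visible, since deviations from the group means correlated at -0.02, 0.03 and 0.01 between samples of the same number. Such correlations cannot show how the cultures were handled, and the labels do not say whether they were run in pairs. With the replicate block 4595 genes had an adjusted p below 0.05, 646 met the criterion and the AP-1 counts remained at 7 and 5. Depth limits BATF3 most, with fewer than 20 estimated fragments in every sample.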
